A study of Sciaenops ocellatus with 24 samples.

Results

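Of the 260 mature miRNA names listed in at least 1 of the 6 deposited count tables, 2 are described here, ola-miR-100 and ola-miR-125a-5p, taken by their names. Both names carry the medaka prefix, because the reads of red drum (Sciaenops ocellatus), a marine fish, were counted under miRBase names of many species. ola-miR-100 was listed in 6 of 6 tables and passed the filter on low counts in each. ola-miR-125a-5p was listed in the 3 source oil tables, where it passed the filter, and in none of the slick oil tables.

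The data were small RNA libraries of pooled whole larvae at 48 hours post fertilization, 3 libraries in each of 8 groups. Slick oil was weathered oil skimmed off the sea after the Deepwater Horizon spill, and source oil was a pipeline oil that stands in for the oil at the well. Larvae were exposed to slick oil at 1.25%, 2.50% or 5.00%, or to source oil at 0.135%, 0.27% or 0.54%, of a high-energy water accommodated fraction (oil blended into seawater), and each oil had its own unexposed control. Embryos of all groups, controls included, had been treated with formalin before exposure, per the labels. Nothing in the labels ties the 3 libraries of a group to different spawns or vessels, and p-values therefore rest on a spread between libraries that may be technical. Total counts per library ran from 2820454 to 9306948 with slick oil, from 6842201 to 9741582 with source oil, and from 6778108 to 9404688 in the controls of both oils. The shallowest libraries were those at 5.00% slick oil. All 19 marker miRNAs of muscle, nervous system, sensory cells, blood, liver and gut, skin and pancreas were listed for both oils. A listed marker was not always counted: the names of miR-1 and miR-192, among others, were at 0 in some control library of each oil.

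MicroRNAs are short RNAs that guide Argonaute proteins to matching sites in mRNAs and lower their output. In vertebrates miR-100 and its close relative miR-99 are often made from a common host transcript with a let-7 miRNA and a miR-125 miRNA, and miR-125 is the relative of lin-4, the miRNA that times larval stages in the worm Caenorhabditis elegans together with let-7. In mammals miR-100 is known to repress mTOR, a kinase of the cell growth pathway, and miR-125 and let-7 repress LIN28, a protein that blocks let-7 maturation. miR-100 also resembles miR-10, a miRNA of the Hox clusters. Where these genes lie in the red drum genome was not analysed here.

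ola-miR-100 fell with source oil, and its slope over the source concentrations was called. At 0.54% it was at 0.61 of the control level over all names with TMM scaling (described below), a log2 fold change of -0.71. With library totals alone the latter was -0.41 over all names and not called. ola-miR-100 was called at none of the slick oil concentrations, where its fitted fold changes were above 0 on the log2 scale. In the source controls it had 1141, 1120 and 1222 reads. It had 1310, 993 and 940 reads at 0.135%, 1196, 874 and 937 at 0.27%, and 892, 844 and 1231 at 0.54% source oil. The raw counts of exposed and control libraries overlapped at 0.135%, 0.27% and 0.54%, and library sizes differed.

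After scaling (CPM, each count scaled to a common library total of the tested names, with TMM factors over the 12 libraries of the oil) the source series had a clear order. The level was 177, 165 and 198 CPM in the controls and 164, 130 and 140 CPM at 0.135%. It was 137, 119 and 120 CPM at 0.27% and 104, 115 and 127.5 CPM at 0.54% source oil. All 9 exposed libraries stood below the lowest control on this scale, library 1 at 0.135% by the smallest margin; of 167 names, 11.4% had exposed and control libraries that did not overlap in either direction. This rests on the TMM factors, which were 1.00 in that library and 0.80 in control 1. With library totals alone, a scale added here after the data were seen, the level was 164 CPM in library 1 at 0.135%, against 141, 160 and 181 CPM in the controls, and the other 8 exposed libraries stood below all controls. Group means were 180 ± 16.5 CPM in the controls, 145 ± 17.2 at 0.135%, 126 ± 10.1 at 0.27% and 116 ± 11.7 at 0.54% (SD, n = 3 each). Neighbouring exposed groups, 0.135% with 0.27% and 0.27% with 0.54%, overlapped.

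For slick oil no order appeared. The level was 204, 208 and 208 CPM in the slick controls and 242, 201 and 284 CPM at 1.25%. It was 219, 278 and 153 CPM at 2.50% and 260, 216.9 and 247 CPM at 5.00% slick oil. Library 3 at 2.50% was the lowest of the 12 and library 3 at 1.25% the highest, and the 1.25% and 2.50% groups overlapped the controls. The 9 exposed and 3 control slick libraries overlapped for ola-miR-100, and did not for 0.617% of 162 names. The 3 libraries at 5.00% stood above the controls on this scale, and overlapped them when scaled within their own table. The slick controls lie close together on this scale; in raw reads control 1 had 1173 and controls 2 and 3 had 1656 and 1706, with TMM factors of 0.82, 1.11 and 1.10.

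**Figure D1:**
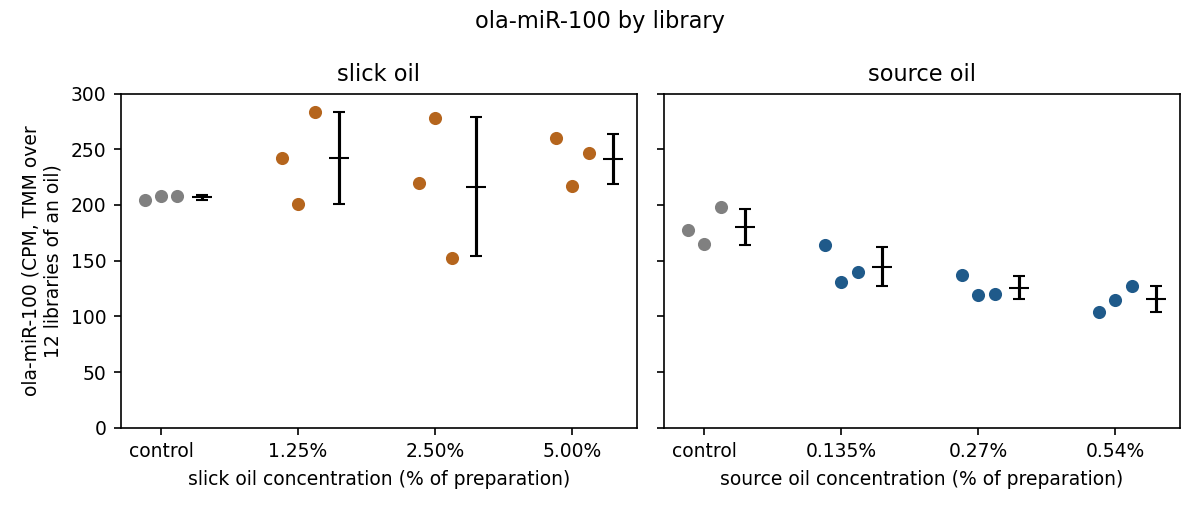
Level of ola-miR-100 in each library (vertical axis, CPM with TMM factors over the 12 libraries of an oil) by concentration (horizontal axis), slick oil left and source oil right; points are libraries 1 to 3, and the bar beside them is the mean with its SD. With source oil the 9 exposed libraries lie between 104 and 164 CPM, below the 3 controls at 165 to 198 CPM (with library totals alone, library 1 at 0.135% is above 2 controls), whereas with slick oil they spread on both sides of the controls.

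Each concentration was tested against its own control in edgeR's quasi-likelihood test with Benjamini-Hochberg adjustment over all names, once with all names that passed the filter and once with the names counted in every library of the comparison. At 0.54% source oil ola-miR-100 fell in both fits. The log2 fold change was -0.71 ± 0.14 (SE, adjusted p = 0.0354, edgeR, all names, 3 against 3 libraries) and -0.66 ± 0.13 (adjusted p = 0.00655, edgeR, names counted in every library). The background is high in this comparison: 14.4% of 153 names were called in the first fit and 40.3% of the names in the second. In CPM the exposed and control libraries of ola-miR-100 did not overlap in either fit, where this held for 49.7% and 60.5% of the names. In whole larvae a lower level can mean fewer cells that make a miRNA or less of it per cell, and these cannot be told apart.

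The call at 0.54% held in each of the 6 fits to names counted in every library that left out a library, with adjusted p between 0.00414 and 0.0330. Over all names it held in 1 of 6: the adjusted p was 0.0325 without exposed library 3, leaving out control 1, 2 or 3 gave 0.0671, 0.0926 and 0.101, and leaving out exposed library 1 or 2 gave 0.0726 and 0.108. When libraries were scaled by their totals alone, the median name stood at 0.28 log2 units, against -0.03 with TMM, and ola-miR-100 at -0.41 (adjusted p = 0.0768, edgeR). The calls over all names were then 25 higher and 5 lower, against 4 higher and 18 lower with TMM. Among names counted in every library ola-miR-100 was called on that scale as well, at -0.46, with 43 names higher and 13 lower, against 25 and 25 with TMM.

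At 0.27% source oil the log2 fold change of ola-miR-100 was -0.52 ± 0.11 over all names, which was not called (adjusted p = 0.0737, edgeR), and -0.53 ± 0.12 among names counted in every library, which was (adjusted p = 0.0243, edgeR). The shares of names called were 1.27% of 158 and 22.7% of 119, and the libraries did not overlap for ola-miR-100 nor for 34.8% and 37.8% of the names. Leaving out control 2 or 3 ended this call (adjusted p = 0.0877 and 0.0768), as did leaving out exposed library 2 or 3 (adjusted p = 0.0931 and 0.0800). With library totals alone the value was -0.35 (adjusted p = 0.0714), where the median of all names was 0.22.

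At 0.135% source oil ola-miR-100 was not called. Its log2 fold change was -0.30 ± 0.13 over all names (adjusted p = 0.394, edgeR) and -0.34 ± 0.12 among names counted in every library (adjusted p = 0.157, edgeR), with 95% intervals of -0.64 to 0.03 and -0.61 to -0.07 that take no account of the number of names. The shares of names called were 1.28% and 0%, with 22 and 28 names at an unadjusted p under 0.05, and DESeq2 called 22 and 13 names. The 2 names behind the 1.28% were a let-7 name and ola-miR-125a-5p. ola-miR-125a-5p and the let-7 name tni-let-7d were at 0 in all exposed libraries, where a call is no test. The exposed and control libraries did not overlap for ola-miR-100 nor for 22.4% and 24.4% of the names. These 3 comparisons share their controls, so their directions are not independent.

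Fitted over all 12 source libraries, the slope of ola-miR-100 on concentration was -0.61 ± 0.13 in log2 units from the control to 0.54% (SE, adjusted p = 0.00753, edgeR, all names), and -0.64 ± 0.13 among names counted in every library (adjusted p = 0.00126, edgeR). Slopes were called for 29.3% of 167 and 46.4% of 112 names. The slope of ola-miR-100 stayed called in each of 12 fits of either kind that left out a library, and under library totals alone, where it was -0.38 (adjusted p = 0.0265) and the median slope of all names 0.24.

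With slick oil ola-miR-100 was called at no concentration. Over all names its log2 fold change was 0.26 ± 0.16 at 1.25%, 0.15 ± 0.30 at 2.50% and 0.18 ± 0.12 at 5.00% (SE, adjusted p = 0.988, 0.990 and 0.615, edgeR, 3 against 3 libraries each). The 95% intervals were -0.15 to 0.68, -0.62 to 0.91 and -0.14 to 0.50. The fitted value at 0.54% source oil, -0.71 ± 0.14 (SE, all names), lies below each of these intervals, which take no account of that SE. This is no test of the difference between the oils, which is given below. edgeR called 0.629%, 0% and 2.01% of the names over all names, with 4, 4 and 20 names at an unadjusted p under 0.05, and DESeq2 called 3, 1 and 21. Among names counted in every library edgeR called 0%, 0% and 5.41%, with 5 and 8 names under 0.05 unadjusted at 1.25% and 2.50% and 1 and 0 called by DESeq2, and ola-miR-100 was not among them. Scaled within a table, the exposed and control libraries of ola-miR-100 overlapped at each slick concentration; they did not for 8.81%, 10.9% and 20.8% of all names, and for 8.2%, 13.2% and 23.4% of the names counted in every library. The slope over the 12 slick libraries was 0.15 ± 0.22 (adjusted p = 0.982, edgeR), where 0.617% of all names and 0.98% of those counted in every library were called.

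The difference between the responses to the oils was tested directly at the matched rank of concentration. The percentages used for the oils differ, and what is matched is the rank. Each oil was run as its own experiment with its own controls, so oil and experiment cannot be told apart in this test. At the highest rank, 5.00% slick against 0.54% source oil, the slick response of ola-miR-100 exceeded the source response by 0.83 ± 0.21 log2 units among names counted in every library (SE, adjusted p = 0.0122, edgeR, 12 libraries), with a 95% interval of 0.39 to 1.27. This test called 25% of 108 names. Over all names the difference was 0.81 ± 0.19 and just missed the threshold (adjusted p = 0.0519, edgeR, 3.01% of names called). At the middle rank it was 0.56 ± 0.28 and at the lowest 0.59 ± 0.19 over all names (adjusted p = 0.637 and 0.518, edgeR), where edgeR called 0% of the names at either rank, with 8 and 7 names at an unadjusted p under 0.05 (DESeq2 was not run for this test). Under library totals alone the difference at the highest rank was 0.49 among names counted in every library (adjusted p = 0.0765, edgeR), where the median of the same names was -0.36. Over all names it was 0.43 on that scale and not called, where the median was -0.47.

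Unexposed larvae of the 2 experiments were also set side by side. On a common scale ola-miR-100 was at 218, 238 and 237 CPM in the slick controls and 229, 220 and 262 CPM in the source controls, and the groups overlapped. The difference, slick over source, was -0.04 ± 0.11 log2 units (SE, 95% interval -0.31 to 0.24, adjusted p = 0.882, edgeR), where 21% of 119 names were called. The let-7 name ola-let-7g was lower in the slick controls in the same fit, with 3455 ± 605 CPM against 6586 ± 530 CPM in the source controls (SD, n = 3 each), a log2 difference of -0.93 ± 0.15 (adjusted p = 0.0147, edgeR). Among names counted in every library it was -0.88 ± 0.16 (adjusted p = 0.00210, edgeR), where 43.9% of 107 names were called.

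Names of the let-7, miR-10 and miR-125 lists were read beside ola-miR-100, which was the sole listed name of miR-99 and miR-100. At 0.54% source oil 5 of 5 let-7 names counted in every library fell, where 40.3% of all names tested were called in either direction, with a median log2 fold change of -0.41 where the median of all names tested was 0.06. Of these 5, tca-let-7-5p had nearly the counts of mse-let-7a, such as 62464 and 62779 reads in source control 1, so the tally may count the same reads under both. Of 3 miR-10 names 2 fell, sha-miR-10b and mdo-miR-10b-5p, which have nearly the same counts, and the third, tur-miR-10-5p, was at -1.06 ± 0.40 (adjusted p = 0.0594, edgeR). The single miR-125 name counted in every library, chi-miR-125b-5p, was at -0.14 ± 0.09 and not called (adjusted p = 0.243, edgeR). ola-let-7g was at -0.46 ± 0.10 (adjusted p = 0.00822), ssc-let-7i at -0.54 ± 0.10 (adjusted p = 0.00613) and sha-miR-10b at -0.49 ± 0.11 (adjusted p = 0.00852, all edgeR). At 0.27% source oil 3 of 4 let-7 names and 2 of 3 miR-10 names counted in every library were called lower. In that fit 22.7% of the names tested were called, and chi-miR-125b-5p was at -0.04 ± 0.11. The let-7 and miR-10 medians were -0.32 and -0.36, and the median of the names tested was 0.03. With library totals alone the let-7 and miR-10 medians stayed below 0, at -0.20 and -0.29 at 0.54% and at -0.13 and -0.17 at 0.27%, but the lower calls went down to 1 of 5 and 2 of 3 at 0.54% and to 0 of 4 and 0 of 3 at 0.27%, and chi-miR-125b-5p turned to 0.07 and 0.16. At 0.135% and at the 3 slick oil concentrations none of these names was called in the fit to the names that every library had counts for, where 0%, 0%, 0% and 5.41% of the names were called. In the fit over all names 1 of 8 let-7 and 0 of 3 miR-10 names were called lower at 0.27% source oil. There 1.27% of 158 names were called. At 0.54% these counts were 5 of 8 and 2 of 4, where 14.4% of 153 names were called. The let-7 name tni-let-7d was at 0 in all exposed libraries at 0.27% and 0.54%.

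**Figure D2:**
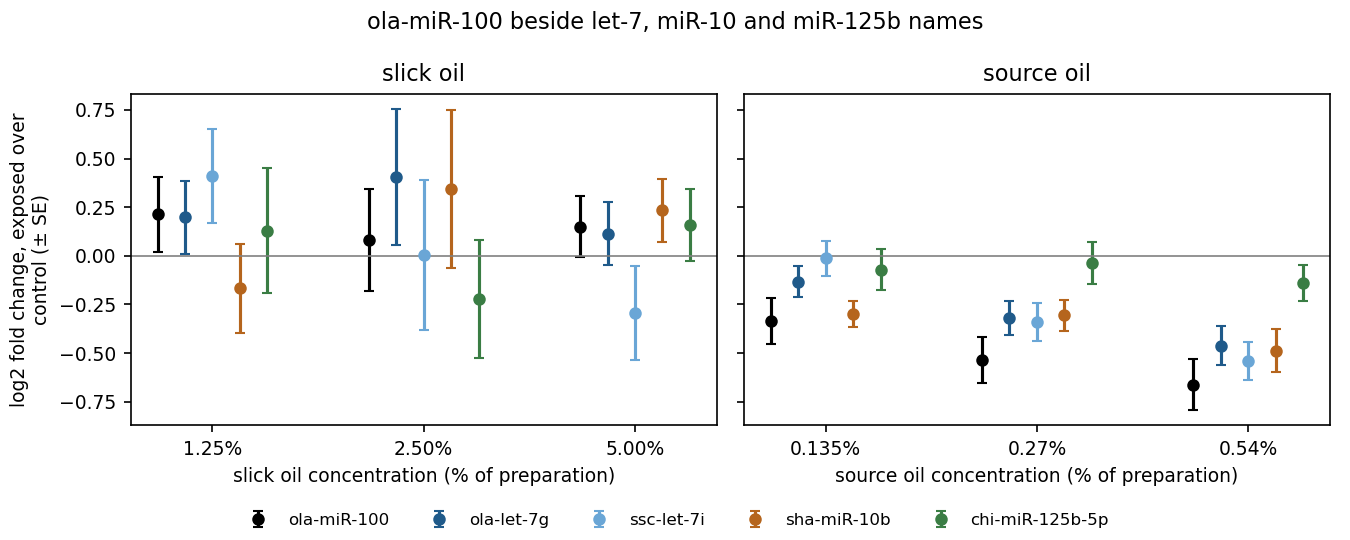
Log2 fold change of exposed over control libraries with its SE (vertical axis, edgeR, names counted in every library, 3 against 3 libraries) by concentration (horizontal axis), slick oil left and source oil right, for ola-miR-100 and 4 other names. At 0.54% source oil ola-miR-100, both let-7 names and sha-miR-10b lie between -0.66 and -0.46, and chi-miR-125b-5p at -0.14.

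A ratio of 2 names within a library does not depend on how libraries are scaled, so ola-miR-100 was also set against let-7 and miR-125b within each library. Per 100 reads of mse-let-7a, the let-7 name of highest count among those counted in all 12 source libraries, the exposed source libraries had 1.30 to 1.82 reads of ola-miR-100 with a median of 1.56, and the source controls 1.82, 1.71 and 2.16. Of the 9 exposed libraries 6 stood below all controls. The mean log2 ratio differed by -0.28, exposed minus control (two-sided exact permutation test over 220 splits, unadjusted p = 0.0455, 9 against 3 libraries). Adjusted over the 4 ratio tests computed, to let-7 and to chi-miR-125b-5p in each oil, the p was 0.0909 (Benjamini-Hochberg, exact permutation), so the difference did not pass. The unadjusted p passed 0.05 no longer without control 1 or 3 (p = 0.0909 and 0.236, exact permutation) and without library 2 or 3 at 0.135%, 2 or 3 at 0.27% or 2 at 0.54% (p = 0.0727, 0.0727, 0.0667, 0.0606 and 0.0727, exact permutation).

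The ratio to chi-miR-125b-5p was added after its fold changes had been seen. Its exact permutation test was computed and counts among the 4 ratio tests above. Because of that choice the ratio is given as a description, without its p. Per 100 reads of chi-miR-125b-5p there were 7.27 to 11.6 reads of ola-miR-100 in the exposed source libraries, with a median of 9.005, and 11.99, 11.6 and 12.8 in the source controls. Of the 9 exposed libraries 8 were below all controls, and library 3 at 0.135% lay just above control 2. The mean log2 ratio, exposed minus control, was -0.42. The libraries at 0.135% had 11.03, 8.09 and 11.6 such reads, those at 0.27% 10.8, 7.77 and 7.66, and those at 0.54% 7.27, 9.005 and 9.14.

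The ratios in slick oil had no clear order. The slick ratio to let-7 used ola-let-7g, the let-7 name of highest count among those counted in every slick library. The source ratio used mse-let-7a, so the let-7 ratios of the oils have different denominators. Per 100 reads of ola-let-7g, the 9 exposed slick libraries had 4.78 to 8.26 reads of ola-miR-100 and the controls 5.25, 7.53 and 7.76. The difference of mean log2 ratio was -0.09 (exact permutation test, unadjusted p = 0.682, 9 against 3 libraries). Per 100 reads of chi-miR-125b-5p the exposed slick libraries had 10.8 to 27.2 and the controls 13.8, 17.2 and 9.67 (difference of mean log2 ratio 0.13). Library 2 at 2.50% and library 1 at 1.25% were the highest, with 27.2 and 24.3.

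**Figure D3:**
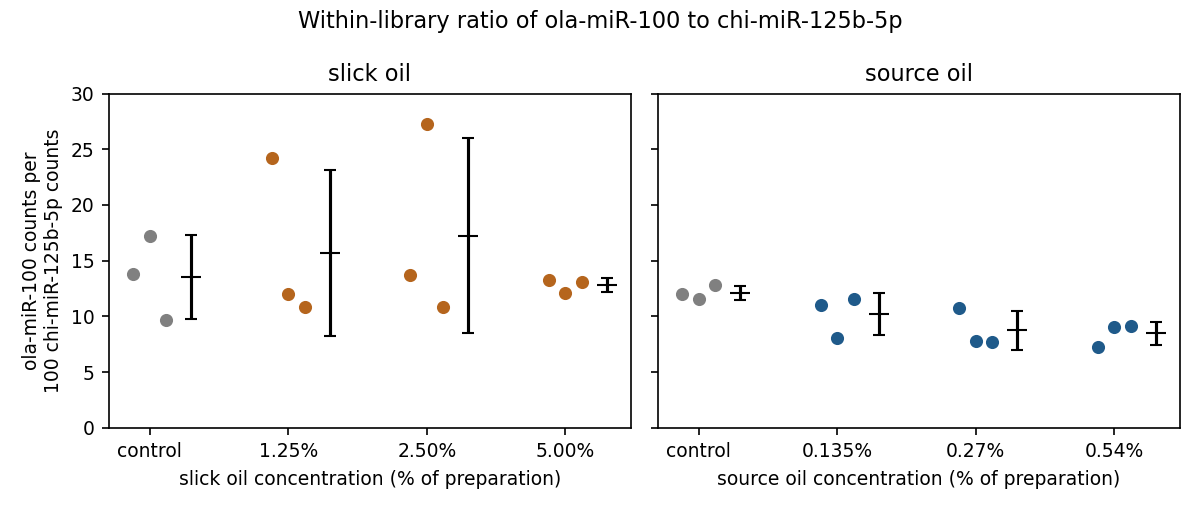
Reads of ola-miR-100 per 100 reads of chi-miR-125b-5p in each library (vertical axis) by concentration (horizontal axis), slick oil left and source oil right; points are libraries 1 to 3, and the bar beside them is the mean with its SD. In the source series the controls lie between 11.6 and 12.8 and the libraries at 0.54% between 7.27 and 9.14, whereas the slick groups overlap.

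Names whose level followed ola-miR-100 most closely were sought among the 96 other names counted in all 24 libraries. The measure was the root-mean-square difference of log2(CPM + 1), with each name centred on its mean within each oil. The closest were ssa-miR-301a-5p (0.19 log2 units), hhi-miR-196 (0.20), a miRNA of the Hox clusters, and ipu-miR-375 (0.20), a miRNA of pancreatic islet cells. ola-miR-100 itself varied by 0.23 on this measure, which is its distance from a name that does not vary, so these names are only slightly nearer. ola-let-7g ranked 7, sha-miR-10b 10 and chi-miR-125b-5p 40.

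ola-miR-125a-5p was either counted at 14625 to 16332 reads or not at all. It had 14625, 15861 and 16332 reads in the source controls. It was at 0 in libraries 1, 2 and 3 at 0.135%. At 0.27% it was at 0 in libraries 1 and 3 and had 15258 reads in library 2, and at 0.54% it was again at 0 in libraries 1 and 3 and had 15144 reads in library 2. No library held an intermediate count, and of the 12 source libraries 7 were at 0. A count of 0 allows up to 3 reads, which is 0.308 to 0.438 CPM of library total in these 7 libraries; this limit covers counting error only.

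At 0.135% source oil the exposed libraries held 0 of 23807804 reads under the name and the controls 46818 reads. With 3 reads over the group as the floor, the count under the name, relative to library totals, was at least 16046-fold lower. This limit covers counting error only. It does not bound the level of the miRNA, because reads of miR-125a can be counted under other names. The fold describes the counts and is given with no test. With all exposed libraries at 0 the name passed the filter through its controls alone. Since every listed name had a count in control 1, a name at 0 in a whole exposed group could only come out lower. The edgeR fit over all names called it at 0.135%, and for that reason the call is no test. At 0.27% and 0.54%, with 1 of 3 exposed libraries counted, the name was not called (adjusted p = 0.957 and 0.882, edgeR, all names). The authors' deposited tables gave the name an FDR of 0 at 0.135%, where all exposed libraries were at 0 and 11.3% of 195 names had an FDR under 0.05. At 0.27% and 0.54% they gave it FDRs of 0.955 and 0.909, with log2 fold changes of -0.11 and -0.13. Their mean signals there were 4854.5 exposed against 17464 control at 0.27%, and 4930 against 18203 at 0.54%.

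Reads of miR-125a were counted under other names as well. The pufferfish name tni-miR-125a had 14633 reads in source control 1, 8 more than ola-miR-125a-5p there, and was at 0 in source controls 2 and 3. At 0.54% source oil library 3, in which ola-miR-125a-5p was at 0, had 21707 reads under tni-miR-125a. The slick tables listed the zebrafish name dre-miR-125a and the frog name xtr-miR-125a instead, with 10384 and 10379 reads in slick control 1. Slick control 2 had 14677 reads under the first name alone and slick control 3 had 23006 under the second alone. A library at 0 under a miR-125a name could thus hold miR-125a reads under another.

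Taking the highest count among the miR-125a names of a library, 15 of the 24 libraries had between 6478 and 23006 reads, or 1779 to 4187 CPM. With slick oil 1 of 3 libraries was at 0 at each concentration and 0 of 3 in the controls. With source oil 3 of 3 libraries were at 0 at 0.135%, 2 of 3 at 0.27%, 1 of 3 at 0.54% and 0 of 3 in the controls. The share of libraries at 0 was thus not highest at the highest concentration, but the source groups were not compared on the same names. At 0.27% 1 miR-125a name was listed, against 2 at 0.135%, at 0.54% and in the controls. Under ola-miR-125a-5p alone 2 of 3 libraries were at 0 at 0.27% and at 0.54% alike. In the source libraries that held reads the level was 2082 CPM at 0.27% (library 2), 2064 and 2249 CPM at 0.54% (libraries 2 and 3), and 2271, 2341 and 2645 CPM in the controls. These are single values, given without a test because the libraries were picked by their counts.

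**Figure D4:**
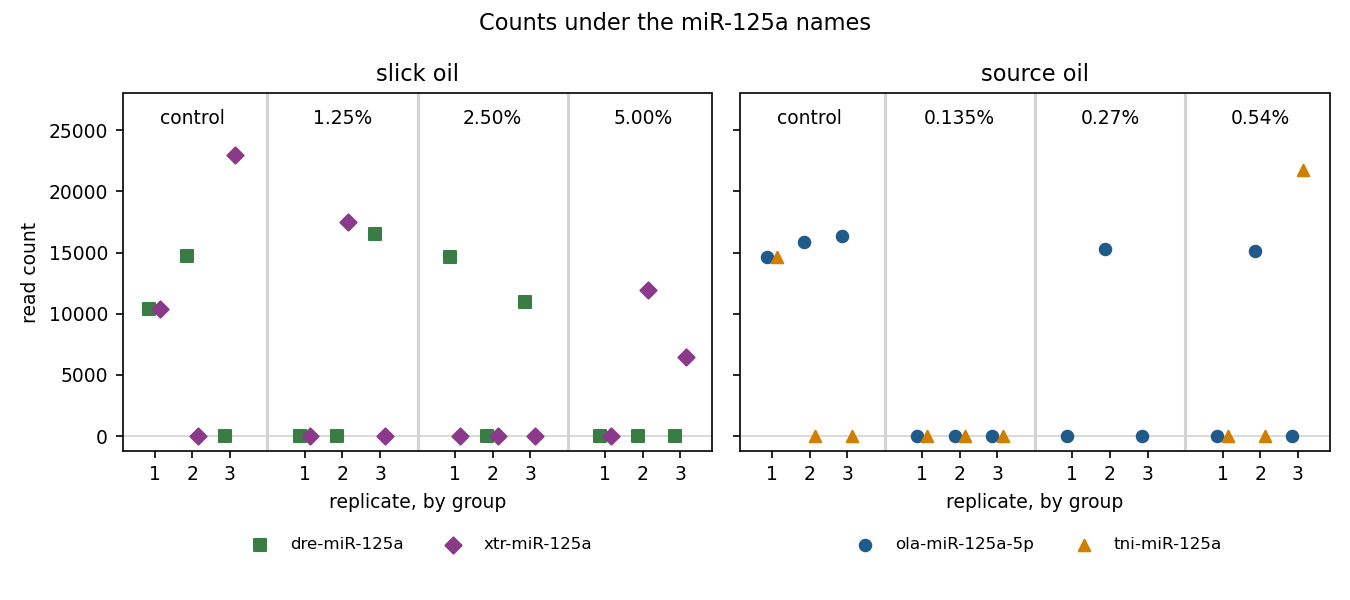
Read counts (vertical axis) under each listed miR-125a name in libraries 1 to 3 of each group (horizontal axis), slick oil left and source oil right, with controls first and concentrations rising to the right; tni-miR-125a was not listed at 0.27%. Each name is either at 0 or has at least 6478 reads, and in source library 3 at 0.54% tni-miR-125a holds 21707 reads where ola-miR-125a-5p is at 0.

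Such zeros were common in these tables. Of the names that reached 1000 reads in some library of a table, 35.4% to 38.1% were at 0 in another library of the same table. Among 131 such names of the source libraries, 26 to 32 were at 0 in each library in which ola-miR-125a-5p was at 0, and 28, 28, 28 and 33 in 4 of the 5 libraries in which it was counted. The fifth was control 1, with 0 such names, because every listed name had a count in control 1 of its oil. Consequently no name could be listed that was counted in exposed libraries but not in control 1, and 0 of the 193 names in all 3 source tables were counted only where ola-miR-125a-5p was at 0. None was at 0 in exactly the same 7 libraries; the nearest was tni-let-7d, a let-7 name, which was at 0 in all 9 exposed libraries and differed in 2 libraries. At 0.135% these were the 2 names at 0 in all exposed libraries and with at least 10 reads in all controls. The part of read assignment between names in the zeros of ola-miR-125a-5p was not tested.

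In the authors' deposited tables ola-miR-100 had a log2 fold change of -0.32 at 0.135% (FDR 0.0817), -0.55 at 0.27% (FDR 6.62e-06) and -0.67 at 0.54% source oil (FDR 2.71e-06), and 0.21, 0.09 and 0.14 at 1.25%, 2.50% and 5.00% slick oil (FDR 0.998, 0.998 and 0.541). The shares of names with an FDR under 0.05 were 11.3% of 195, 17.4% of 190 and 31.8% of 198 in these source oil comparisons. In the slick oil comparisons they were 1.52% of 198, 2.5% of 200 and 11.1% of 190.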

How the data were processed

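Reads were counted per mature miRBase name, per the file headers; which aligner and which miRBase release were used, and how a read matching several names was assigned, is not given in the sources used here. The deposited files are 6 tables of raw counts, 1 per oil and concentration, each with its 3 control libraries. The authors also deposited 6 tables from DESeq2, named without a version in the submitters' processing notes. Per the file headers, these give mean signal (from the values, counts divided by size factors) of exposed and control libraries, their difference as a score, a log2 fold change, and a p-value with its FDR. Columns were matched to samples by title, and 0 stayed unmatched.

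Counts were tested with edgeR 4.0.16 in R 4.3.3 (TMM, quasi-likelihood F test) on names that reached 10 counts in 3 or more libraries, each concentration within its own table. Calls were Benjamini-Hochberg adjusted p-values under 0.05. A further fit kept names counted in every library, since names at 0 in some libraries raised the common biological coefficient of variation to 124% to 139%, against 11.3% to 36.7% in that fit. Fits across tables of an oil used the names whose control counts were the same in its 3 tables (185 slick, 190 source). SE is the absolute log2 fold change over the square root of F. DESeq2 1.42.0 was an alternative. The labels do not say that replicate numbers in the titles pair libraries, and the main fits were unpaired. Deviations of same-numbered libraries correlated at 2.50% slick oil (r 0.37 to 0.62), and in the other comparisons r ran from -0.27 to 0.40. A fit with the replicate number as a block was an alternative. The members, lists and tests were chosen with earlier results of these data known. Names in the text were the members, their lists (let-7, miR-99 and miR-100, miR-125, miR-10), the 3 names nearest to ola-miR-100 and those sharing zeros with ola-miR-125a-5p. No mature miRNA sequences were at hand, so none is printed.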

Additional observations from a re-analysis of the deposited data

Results flagged for a closer look

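The response of ola-miR-100 differed between the slick and source experiments by the test of the difference itself. Oil and experiment cannot be told apart here. At the highest rank of concentration, the slick response minus the source response was 0.83 log2 units among names counted in every library (adjusted p = 0.0122, edgeR). This call held in 12 of 12 fits without a library, and 25% of 108 names were called in the same test. Over all names the difference missed the threshold (0.81, adjusted p = 0.0519), and it was called in 5 of 12 fits without a library. With library totals alone, among names counted in every library, it was 0.49 and not called (adjusted p = 0.0765). With TMM, among names counted in every library, 3 of 3 miR-10 names were called higher, with a median of 0.98, and 0 of 5 let-7 names, with a median of 0.46. Over all names 0 of 3 miR-10 names were called (median 0.94) and 0 of 6 let-7 names (median 0.39). With library totals, among names counted in every library, 1 of 3 miR-10 names was called (median 0.61). The let-7 median was 0.09 on that scale, with 2 of 5 names below 0 and 0 called. Of these miR-10 names, sha-miR-10b and mdo-miR-10b-5p had nearly the same counts in the source libraries of the test, such as 14461 and 14478 reads in source control 1. The tally may thus count the same reads under both.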

How the results depend on the processing

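The slope of ola-miR-100 on source oil concentration stayed below 0 and called under each alternative run, library totals and the replicate block included (without a library, from -0.72 to -0.50 over all names). At 0.54% its fall over all names missed the threshold with library totals (-0.41), with no count filter (-0.67), with the replicate block (-0.71), and without a library in 5 of 6 fits (-0.77 to -0.58). At 0.27% it was called over all names under DESeq2 (-0.55), with all 12 libraries (-0.52) and among names counted in every library (-0.53), and in that last fit it was lost with library totals (-0.35), with the replicate block (-0.53) and in 4 of 6 fits without a library (-0.59 to -0.44). Without a library, the value at 2.50% slick oil ran from -0.13 to 0.25 over all names and from -0.11 to 0.24 among names counted in every library. The uncalled slick slope reversed under library totals (-0.0047, and -0.065 among names counted in every library). The difference between slick and source controls was 0.095 under library totals and 0.0055 among names counted in every library, and without a library it ran from -0.060 to 0.078 and from -0.058 to 0.077. The slick minus source response at the highest rank was 0.83 among names counted in every library and 0.49 with library totals in that fit. Without a library it ran over all names from 0.72 to 0.95, and at the middle rank, among names counted in every library, from 0.40 to 0.82. The difference of mean log2 ratio of ola-miR-100 to let-7, exposed minus control, was also refitted without a library. It ran from -0.35 to -0.18 with source oil and from -0.27 to 0.015 with slick oil. For the ratio to chi-miR-125b-5p the same difference ran from -0.47 to -0.38 with source oil and from -0.096 to 0.32 with slick oil. For ola-miR-125a-5p at 0.135% the fitted value, which depends on the prior count and is no test, was -17.16 with all 12 libraries and -17.02 with the replicate block. The main fit over all names called the name and these 2 alternatives did not. With the exposed group at 0, none of these outcomes is a test. Without a library it ran from -17.08 to -1.20 at 0.27% and from -17.18 to -1.26 at 0.54%; the lowest value of each comes from leaving out the sole exposed library with reads, which leaves the exposed group at 0 and is no test. At 2.50% slick oil, where same-numbered libraries correlated most, the replicate block changed no call. Whether same-numbered libraries are paired is not stated in the labels for any concentration. The cause of these changes was not tested.

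The number of names called at 1.25%, 2.50% and 5.00% slick oil and 0.135%, 0.27% and 0.54% source oil was 1, 0, 3, 2, 2 and 22 over all names and 0, 0, 6, 0, 27 and 50 among names counted in every library. Under DESeq2 it was 3, 1, 21, 22, 31 and 64, and among names counted in every library 1, 0, 12, 13, 28 and 46. With all 12 libraries it was 0 at 1.25%, 0 at 5.00%, 1 at 0.135%, 13 at 0.27% and 34 at 0.54%, and among names counted in every library 1 at 5.00% and 1 at 0.135%. With the replicate block it was 0 at each of the 6 over all names, and 2 at 1.25% and 1 at 0.27% among names counted in every library. Among the latter the block gave 3 names higher and 4 lower at 5.00%, and 28 higher and 30 lower at 0.54%. With no count filter it was 1 at 5.00%, 1 at 0.27% and 5 at 0.54%. With library totals it was 3 at 5.00% among names counted in every library and 10 at 0.27% over all names. Without a library the counts over all names ran from 0 to 3 at 1.25%, 0 to 2 at 2.50%, 0 to 6 at 5.00%, 0 to 4 at 0.135%, 0 to 6 at 0.27% and 0 to 28 at 0.54%. Among names counted in every library they ran from 0 to 2 at 1.25%, 1 to 13 at 5.00%, 0 to 6 at 0.135%, 0 to 43 at 0.27% and 26 to 51 at 0.54%. With source oil, library totals moved the calls at 0.54% to 25 higher and 5 lower over all names, where TMM gave 4 and 18, and at 0.27% among names counted in every library to 30 and 2, where TMM gave 11 and 16. Counts of ola-miR-100 were lowest in the 5.00% slick libraries, at 571, 842 and 629 reads.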
